A study of Homo sapiens with 11 samples.

Results

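The interferon-stimulated genes are a set of 39 protein-coding genes taken by symbol from the 58037 gene identifiers of the count table, and all 39 were found. Their levels were read in 11 paired-end RNA-seq libraries from human acute myeloid leukaemia cells grown in RPMI with 20% fetal bovine serum. The cells were the established line OCI-AML3 and its relative OCI-AML3-FLT3-ITD, called the FLT3-ITD line below after the internal tandem duplication that activates the FLT3 receptor in many leukaemias. Both were left as controls or given FHD-286 at 100 nM for 16 h, a compound that blocks the ATPase subunits of BAF remodelling complexes, BRG1 (SMARCA4) and BRM (SMARCA2). Replicate libraries numbered 3 for untreated and 3 for treated OCI-AML3, and 3 for untreated and 2 for treated FLT3-ITD cells. The labels name neither a vehicle for the controls nor separate cultures for the replicates, so a p-value here weighs a difference against library-to-library spread, which may be technical. They also do not say how the duplication was introduced or whether the line is 1 clone, and they name no added interferon.

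Type I interferons bind a receptor made of IFNAR1 and IFNAR2, whose kinases JAK1 and TYK2 phosphorylate STAT proteins, among them STAT2. With IRF9 these form the complex ISGF3, which binds the interferon-stimulated response element upstream of genes whose products restrict viruses by binding foreign RNA, blocking membrane fusion, tagging proteins with ISG15 or degrading nucleic acid. Many of these genes are also transcribed without added interferon, through unphosphorylated STAT complexes or interferon regulatory factors (IRFs), and in myeloid cells the basal level is known to differ widely between genes.

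The sequence the family is known for is the response element, whose core is 2 copies of GAAA separated by any 2 bases (TTTC on the opposite strand). This core was searched on both strands in the 250 bases before each start site in the RefSeq promoter table (GRCh38.p14). The table held 42 entries for 31 of the 39 genes, and none was used for DHX58, IFIT2, IFITM2, MX2, OAS2, OASL, TRIM22 or USP18. The motif lay in 25 of the 42 entries (59.5%), against 1061 of all 35116 entries (3.02%). Counted by gene, 22 of the 31 (71.0%) carried it in at least 1 entry, against 3.71% of all genes in the table. The gamma-activated site motif TTCNNNGAA, which reads alike on both strands and can overlap the first motif, lay in 10 of the 42 entries (23.8%), against 6.57% of all. Upstream sequences of 4 genes are shown because they changed in different directions after FHD-286: IFIT1 (chr10:89392373-89392545, plus strand) and IFIT3 (chr10:89327747-89327893, plus strand) rose in both lines, while SAMD9 (chr7:93118024-93118229, minus strand) fell and its neighbour SAMD9L (chr7:93148386-93148635, minus strand) rose in OCI-AML3. Each reads 5′ to 3′ on the strand of the gene, ends before the gene's GENCODE 29 start, and has every match of the core, on either strand, in capitals.
IFIT1: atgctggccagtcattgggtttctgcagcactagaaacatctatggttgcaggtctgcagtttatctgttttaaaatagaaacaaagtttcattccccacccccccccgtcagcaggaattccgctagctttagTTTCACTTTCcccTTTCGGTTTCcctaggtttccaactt
IFIT3: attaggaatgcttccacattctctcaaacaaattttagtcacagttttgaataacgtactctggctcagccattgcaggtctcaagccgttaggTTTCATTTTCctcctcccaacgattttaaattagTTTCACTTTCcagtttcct
SAMD9: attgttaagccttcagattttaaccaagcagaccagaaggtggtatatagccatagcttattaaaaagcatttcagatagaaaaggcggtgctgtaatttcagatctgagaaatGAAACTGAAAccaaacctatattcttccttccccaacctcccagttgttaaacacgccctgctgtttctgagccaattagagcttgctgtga
SAMD9L: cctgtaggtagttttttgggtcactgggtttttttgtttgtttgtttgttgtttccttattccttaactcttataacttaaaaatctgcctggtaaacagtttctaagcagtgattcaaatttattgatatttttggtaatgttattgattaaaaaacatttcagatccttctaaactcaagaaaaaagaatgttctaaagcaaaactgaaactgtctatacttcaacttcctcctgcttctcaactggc
IFIT1 and IFIT3 carried 2 matches each in these windows, SAMD9 carried 1, and SAMD9L carried none. Short windows around the match nearest the start site are shown for ISG20 (chr15:88638937-88638966, plus strand), which rose in both lines, for BST2 (chr19:17405735-17405764, minus strand) and LGALS3BP (chr17:78979962-78979991, minus strand), which fell in both, and for PARP9 (chr3:122564322-122564351, minus strand), whose match spans the RefSeq start site of the divergent gene DTX3L (122564338) and lies inside the GENCODE 29 extent of both genes.
ISG20: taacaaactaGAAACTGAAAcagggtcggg
BST2: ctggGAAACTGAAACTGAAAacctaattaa
LGALS3BP: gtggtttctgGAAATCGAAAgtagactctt
PARP9: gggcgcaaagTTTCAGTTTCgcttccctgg
BST2 had 2 overlapping matches, the others 1 in this window. The ISG20 and LGALS3BP windows also lie inside the GENCODE 29 extent of their own genes, and the BST2 window lies outside that of BST2. Among genes tested below, the motif was present in 5 of 8 that rose, 6 of 9 that fell and 8 of 11 that were not called after FHD-286 in OCI-AML3, counting those with an entry. The shares were 4 of 6, 4 of 7 and 11 of 15 in the FLT3-ITD line. A match describes letters in a window only.

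Total counts ran from 58397190 to 79172389 per library, and 3 counts, the limit that a count of 0 allows, corresponded to between 0.0366 and 0.0548 CPM (counts relative to library size after TMM scaling, the unit of every level below). In the FLT3-ITD line, the library labelled control replicate 2 stood apart: FLT3 was at 53.4 CPM there, at 178 and 203 CPM in the other FLT3-ITD controls, at 171 and 169 CPM in treated FLT3-ITD cells and between 39.2 and 43.3 CPM in OCI-AML3. Its share of mitochondrial counts was also the highest, 8.85% against 4.48% to 7.54% in the others. Results on the FLT3-ITD line are therefore also given without it, and the common biological coefficient of variation of the fit was 0.193 with and 0.0652 without it. The myeloid markers CD33, PTPRC, SPI1, CEBPA and ANPEP were expressed in every library, while KIT had at most 0.0156 CPM. ITGAM (0.378 to 1.51 CPM) and MPO (0.206 to 2.62 CPM) were low. The summed level of the 8 myeloid markers was 940 to 996 CPM in OCI-AML3 controls and 712 to 745 CPM after FHD-286, and 918 to 1078 CPM in FLT3-ITD controls and 499 to 511 CPM after FHD-286. SPI1, the myeloid master regulator, went from 303 to 345 CPM in OCI-AML3 controls to between 42.2 and 49.1 CPM, and from 271 to 316 CPM in FLT3-ITD controls to 23.1 and 24.1 CPM. CD33, CEBPA and MPO also fell in both lines, and ITGAM fell in the FLT3-ITD line (log2 fold change -1.71, adjusted p 0.000464). ANPEP rose in both (log2 fold changes 1.75, adjusted p 0.000119 and 1.12, adjusted p 0.00506), and PTPRC rose in OCI-AML3 (0.46, adjusted p 0.00384) and was not called in the FLT3-ITD line (-0.11). The part of these shifts in the results below was not tested. Of the 5 plasmacytoid dendritic cell markers, a cell type known for high interferon output, IL3RA was listed at 0 in every library and CLEC4C and LILRA4 stayed at or below 0.0548 CPM. How reads were counted is not given, so the 0 of IL3RA is not taken as absence of its RNA. NRP1 was between 0.0778 and 0.952 CPM and fell in both lines (log2 fold changes -2.53, adjusted p 0.000522 and -2.07, adjusted p 0.0071, the latter -2.05, adjusted p 0.00104 without that library). TCF4 was at 60.7, 60.9 and 53.9 CPM in OCI-AML3 controls, 50.2, 50.5 and 53.8 CPM in treated OCI-AML3, 77.4, 63.2 and 83.7 CPM in FLT3-ITD controls and 91.8 and 87.2 CPM in treated FLT3-ITD cells. With all libraries it was called after FHD-286 in neither line, and without that library it was lower in treated OCI-AML3 (log2 fold change -0.18, adjusted p 0.0172). CD3E, HBB, CDH1 and CDH5 were at 0 in every library, and NCAM1 was between 181 and 231 CPM.

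Of the 39 genes, 36 passed the filter on low counts. IFITM1 had at most 3 counts in any library, IFI44L 0 to 12 and EPSTI1 0 to 9. Per kilobase of exon, BST2, which tethers budding virions at the cell surface, stood highest in every group, with a mean level of 215 CPM per kb in OCI-AML3 controls and 56.3 in treated FLT3-ITD cells. IFITM2, a membrane protein that blocks fusion of viral and endosomal membranes, followed in every group, between 46.8 and 83.8 CPM per kb. MX2, IFI35, STAT2, ISG15 and IFITM3 came next in OCI-AML3 controls, between 5.43 and 7.59 CPM per kb. At the low end, IFI44 had no count in any OCI-AML3 control, and OAS1 had 3 counts over the 3 of them.

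FHD-286 moved the genes in both directions. In OCI-AML3, 10 rose and 11 fell of the 36 tested, or 58.3%, while 41.3% of the 18908 genes tested were called (19.8% rose and 21.5% fell). The median log2 fold change of the 36 was 0.26 (0.14 with IFI44, at 0 counts in the controls, set to its bound), against 0.01 over all genes tested. In the FLT3-ITD line 7 rose and 10 fell (47.2%, against 30.5% of all genes, of which 15.6% rose and 14.9% fell), with a median of -0.33 against -0.02. Without FLT3-ITD control replicate 2 these counts were 8 and 18 in the FLT3-ITD line (72.2%, against 49.0% of all genes, 24.8% rising and 24.2% falling). In OCI-AML3, where that library enters only through the shared spread, they were 12 and 15 (75.0%, against 58.8% of all genes, of which 29.8% fell). Each of the 21 and 17 members called with all libraries was also called without it, in the same direction. The CPM ranges of treated and control libraries did not overlap for 28 of 36 genes in OCI-AML3 (77.8%, against 66.0% of all genes) and for 22 in the FLT3-ITD line (61.1%, against 49.0% of all genes). IFIT1, IFIT2, IFIT3, HERC6, ISG20 and IFI35 rose in both lines. MX1, BST2, IFITM2, CMPK2, DTX3L, TRIM22, XAF1 and LGALS3BP fell in both, and 12 genes were called in neither. Counts by role given below cover few genes each, stand against the shares of all genes called above, and are descriptions only. When each library was left out in turn, 15 of the 21 calls in OCI-AML3 and 9 of the 17 in the FLT3-ITD line were made in all 11 fits. In bulk RNA, fewer expressing cells and less RNA per cell cannot be told apart.

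**Figure D1:**
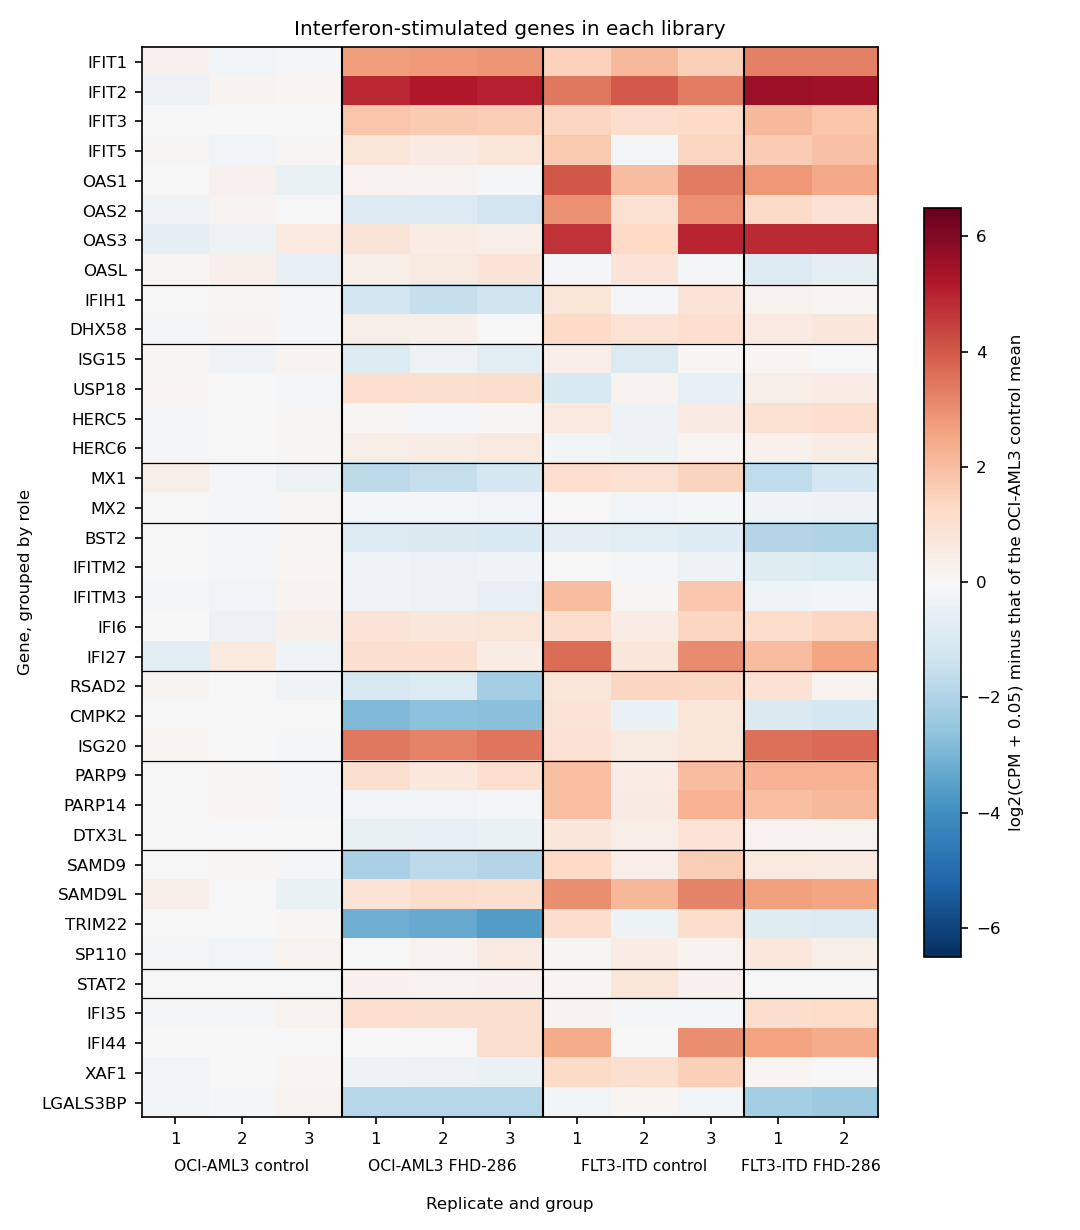
Colour gives log2(CPM + 0.05) of each library minus that of the OCI-AML3 control mean, for the 36 genes tested (rows, grouped by role, black lines between roles) in 11 libraries (columns, by group and replicate number). IFIT1, IFIT2 and ISG20 are red in every treated library, TRIM22 and CMPK2 are blue in treated OCI-AML3, and FLT3-ITD control replicate 2 is paler than replicates 1 and 3 for OAS3, PARP14 and IFITM3.

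The IFIT proteins bind viral RNA by its end structure, and their genes lie side by side on chromosome 10. Of the 8 IFIT and OAS genes tested, 3 rose and none fell in OCI-AML3, and 3 rose and 1 fell in the FLT3-ITD line. Of all genes, 41.3% and 30.5% were called in these lines. IFIT2 (ENSG00000119922.9, GRCh38 chromosome 10, 89283694 to 89309276, plus strand) stood at 0.0365, 0.0781 and 0.0718 CPM in OCI-AML3 controls, 3.28, 4.07 and 3.73 CPM in treated OCI-AML3, 1.18, 1.70 and 1.07 CPM in FLT3-ITD controls and 5.45 and 4.98 CPM in treated FLT3-ITD cells. The OCI-AML3 controls were lowest and no group overlapped another. Its log2 fold change after FHD-286 was 5.84 (SE 0.29, adjusted p 3.56e-07) in OCI-AML3, where the controls held 2, 5 and 4 counts, and 1.98 (SE 0.23, adjusted p 0.000122) in the FLT3-ITD line, or 2.21 (adjusted p 7.17e-10) without control replicate 2. IFIT1 (ENSG00000185745.9, GRCh38 chromosome 10, 89392546 to 89406486, plus strand) was measured at 0.238, 0.156 and 0.162 CPM in OCI-AML3 controls, 1.51, 1.53 and 1.65 CPM in treated OCI-AML3, 0.609, 0.953 and 0.649 CPM in FLT3-ITD controls and 2.24 and 2.20 CPM in treated FLT3-ITD cells. Treated libraries of both lines lay above all controls. IFIT1 rose by a log2 fold change of 3.07 (SE 0.25, adjusted p 6.24e-06) in OCI-AML3 and 1.59 (SE 0.23, adjusted p 0.000565) in the FLT3-ITD line (1.81, adjusted p 4.66e-07 without control replicate 2). IFIT3 (ENSG00000119917.13, GRCh38 chromosome 10, 89327894 to 89340971, plus strand), a partner that stabilises IFIT1 on RNA, had 2.17, 2.19 and 2.21 CPM in OCI-AML3 controls, 7.67, 7.32 and 6.79 CPM in treated OCI-AML3, 5.88, 4.94 and 5.28 CPM in FLT3-ITD controls and 9.64 and 7.74 CPM in treated FLT3-ITD cells. Its treated libraries were again the higher ones in each line, without overlap. The log2 fold change of IFIT3 was 1.73 (SE 0.13, adjusted p 4.39e-06) and 0.69 (SE 0.14, adjusted p 0.00389) (0.64, adjusted p 0.000146 without control replicate 2), and the FLT3-ITD call was lost without treated replicate 1, with an adjusted p of 0.0642. IFIT5, the last of the cluster, was not called in either line (0.73 and 0.60 on the log2 scale), but was called in OCI-AML3 at 0.73 (adjusted p 0.000423) without FLT3-ITD control replicate 2. Exons of IFIT2 overlap other genes over 10.3% of their length.

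The OAS enzymes make short adenylate chains that activate RNase L on sensing double-stranded RNA. OASL, a relative that lacks this activity, was at 0.347, 0.438 and 0.216 CPM in OCI-AML3 controls, 0.456, 0.519 and 0.635 CPM in treated OCI-AML3, 0.298, 0.635 and 0.300 CPM in FLT3-ITD controls and 0.165 and 0.207 CPM in treated FLT3-ITD cells. The treated and control ranges did not overlap in either line, higher after FHD-286 in OCI-AML3 and lower in the FLT3-ITD line, yet neither change passed the test, at 0.68 (SE 0.37, adjusted p 0.168) and -1.13 (SE 0.44, adjusted p 0.0759) on the log2 scale. OAS2 fell in the FLT3-ITD line (-1.48, SE 0.49, adjusted p 0.041, or -1.90, adjusted p 5.78e-09 without control replicate 2), a call that was lost on leaving out any 1 of 10 libraries and kept only without that replicate. OAS1 and OAS3 were not called in either line, although OAS1 fell in the FLT3-ITD line (-0.80, SE 0.57, adjusted p 0.324 with all libraries) at -1.20 (adjusted p 0.0148) without that replicate, and OAS2 in OCI-AML3, not called with all libraries (-1.06, SE 0.47, adjusted p 0.0949), passed the test at -1.07 (adjusted p 0.000127). OAS1 held 3 counts in OCI-AML3 controls and 5 in treated OCI-AML3, a ratio of CPM of 1.27 with a 95% exact interval of 0.247 to 8.18. OAS3 was at 0.0914, 0.13 and 0.287 CPM in OCI-AML3 controls and 0.335, 0.259 and 0.246 CPM after FHD-286, ranges that overlapped.

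Of the 2 cytosolic RNA sensors, 1 fell in OCI-AML3 and neither was called in the FLT3-ITD line. IFIH1 (MDA5, ENSG00000115267.5, GRCh38 chromosome 2, 162267079 to 162318703, minus strand), which detects long double-stranded RNA, was at 8.31, 8.38 and 7.49 CPM in OCI-AML3 controls, 3.38, 2.82 and 3.29 CPM in treated OCI-AML3, 13.7, 7.46 and 14.6 CPM in FLT3-ITD controls and 9.35 and 8.86 CPM in treated FLT3-ITD cells. Treated OCI-AML3 libraries were lowest, and in the FLT3-ITD line the treated values lay between control replicate 2 and the other controls. IFIH1 fell in OCI-AML3 (-1.35, SE 0.22, adjusted p 0.000629). In the FLT3-ITD line it was not called (-0.39, SE 0.24, adjusted p 0.249), but fell without control replicate 2 (-0.64, adjusted p 2.93e-05). DHX58 (LGP2), a regulator of MDA5 and RIG-I, was at 1.06, 1.30 and 1.11 CPM in OCI-AML3 controls, 1.53, 1.45 and 1.18 CPM in treated OCI-AML3, 2.81, 2.15 and 2.56 CPM in FLT3-ITD controls and 1.72 and 1.95 CPM in treated FLT3-ITD cells. Its treated and control libraries overlapped in OCI-AML3, and neither line gave a call (0.26 and -0.45). Without FLT3-ITD control replicate 2, DHX58 fell in that line (-0.54, adjusted p 0.0147).

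ISG15 is a ubiquitin-like protein, USP18 removes it from targets and blunts the type I receptor, and HERC5 and HERC6 belong to the ligase family that attaches it. Of these 4 genes, 2 rose in each line and none fell. USP18 (ENSG00000184979.9, GRCh38 chromosome 22, 18149899 to 18177397, plus strand) had 2.89, 2.56 and 2.51 CPM in OCI-AML3 controls, 5.72, 5.45 and 5.94 CPM in treated OCI-AML3, 1.29, 3.09 and 1.80 CPM in FLT3-ITD controls and 3.50 and 3.69 CPM in treated FLT3-ITD cells. Treated libraries were above the controls in both lines, and FLT3-ITD control replicate 2 was the nearest control. The log2 fold change was 1.10 (SE 0.26, adjusted p 0.00568) in OCI-AML3, a rise, and 0.80 (SE 0.28, adjusted p 0.0527) in the FLT3-ITD line, which became a call of 1.21 (adjusted p 1.65e-06) without control replicate 2. HERC6 stood at 2.70, 2.94 and 3.00 CPM in OCI-AML3 controls, 3.74, 4.02 and 4.45 CPM in treated OCI-AML3, 2.54, 2.31 and 3.10 CPM in FLT3-ITD controls and 3.50 and 4.06 CPM in treated FLT3-ITD cells. The treated libraries were higher without overlap, by less than a doubling. HERC6 rose by 0.50 (SE 0.15, adjusted p 0.0225) and 0.51 (SE 0.17, adjusted p 0.0393) on the log2 scale (0.42, adjusted p 0.02 in the FLT3-ITD line without control replicate 2), and the calls were lost on leaving out any of 4 OCI-AML3 libraries (controls 1 and 2, treated 2 and 3) in the first line and any of 9 libraries in the second. HERC5, which carries most ISG15 ligase activity in human cells, was at 6.87, 7.11 and 7.58 CPM in OCI-AML3 controls, 7.60, 6.62 and 7.65 CPM in treated OCI-AML3, 11.1, 5.76 and 10.6 CPM in FLT3-ITD controls and 14.1 and 15.4 CPM in treated FLT3-ITD cells. It was not called in OCI-AML3 (0.02), where the groups overlapped, and rose in the FLT3-ITD line (0.69, SE 0.23, adjusted p 0.0415, or 0.45, adjusted p 0.000748 without control replicate 2), a call lost on leaving out any library other than the FLT3-ITD controls. ISG15 itself was at 5.41, 4.36 and 5.85 CPM in OCI-AML3 controls, 2.81, 4.07 and 3.07 CPM in treated OCI-AML3, 7.14, 2.83 and 5.53 CPM in FLT3-ITD controls and 5.62 and 5.13 CPM in treated FLT3-ITD cells. Its lowest control was FLT3-ITD replicate 2, and it was called in neither line (-0.65 and 0.06), although in OCI-AML3 it fell (-0.64, adjusted p 0.000528) without that library.

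Of the dynamin-like GTPases MX1 and MX2, MX1 fell in both lines. MX1 (ENSG00000157601.13, GRCh38 chromosome 21, 41420304 to 41459214, plus strand), which traps viral nucleocapsids, was at 0.767, 0.531 and 0.449 CPM in OCI-AML3 controls, 0.147, 0.169 and 0.233 CPM in treated OCI-AML3, 1.28, 1.21 and 1.67 CPM in FLT3-ITD controls and 0.151 and 0.232 CPM in treated FLT3-ITD cells. Treated libraries of each line were lowest, without overlap with their controls. MX1 fell, at -1.66 (SE 0.31, adjusted p 0.00147) in OCI-AML3 and -2.84 (SE 0.35, adjusted p 0.000194) in the FLT3-ITD line (-2.92, adjusted p 5.84e-07 without control replicate 2). MX2, which restricts HIV at the nuclear envelope, was at 97.9, 95.2 and 104 CPM in OCI-AML3 controls, 92.9, 89.1 and 87.4 CPM in treated OCI-AML3, 96.4, 86.2 and 93.2 CPM in FLT3-ITD controls and 81.6 and 79.8 CPM in treated FLT3-ITD cells. Treated libraries lay just below the controls of each line. The log2 fold changes of MX2, -0.14 and -0.19, were not called, but passed the test without FLT3-ITD control replicate 2, at -0.14 (adjusted p 0.0382) and -0.23 (adjusted p 0.00816).

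The membrane proteins ran from BST2 and IFITM2, the highest of the family per kilobase of exon in every group, to IFITM1, with at most 3 counts in any library. Of the 5 tested, 1 rose and 2 fell in OCI-AML3 and 3 fell in the FLT3-ITD line. BST2 (ENSG00000130303.12, GRCh38 chromosome 19, 17402939 to 17405648, minus strand) had 239, 226 and 258 CPM in OCI-AML3 controls, 128, 126 and 120.2 CPM in treated OCI-AML3, 161, 149.6 and 136 CPM in FLT3-ITD controls and 63.5 and 62.4 CPM in treated FLT3-ITD cells. The groups formed 4 separate ranges, highest in OCI-AML3 controls and lowest in treated FLT3-ITD cells. BST2 fell, at -0.95 (SE 0.08, adjusted p 6.24e-06) and -1.24 (SE 0.09, adjusted p 5.92e-06), the latter -1.24 (adjusted p 1.16e-10) without control replicate 2. IFITM2 was at 126, 121 and 141 CPM in OCI-AML3 controls, 108, 101 and 105 CPM in treated OCI-AML3, 128, 121 and 104 CPM in FLT3-ITD controls and 74.4 and 69.9 CPM in treated FLT3-ITD cells. The treated libraries lay below the controls of each line. IFITM2 fell in OCI-AML3 (-0.30, SE 0.09, adjusted p 0.0184) and in the FLT3-ITD line (-0.70, SE 0.10, adjusted p 0.000514, or -0.68, adjusted p 2.39e-06 without control replicate 2). The OCI-AML3 call was lost without control replicate 3 or treated replicate 2 or 3, and exons of IFITM2 overlap IFITM1 over 22.7% of their length. IFITM3, a close paralog that blocks influenza virus entry, was at 7.03, 6.58 and 8.35 CPM in OCI-AML3 controls, 6.34, 5.64 and 5.03 CPM in treated OCI-AML3, 30.1, 7.82 and 24.4 CPM in FLT3-ITD controls and 6.11 and 6.36 CPM in treated FLT3-ITD cells. FLT3-ITD control replicate 2 lay within the OCI-AML3 control range and far below the other FLT3-ITD controls. IFITM3 fell in the FLT3-ITD line (-1.74, SE 0.43, adjusted p 0.0121, or -2.13, adjusted p 1.87e-11 without that library), a call lost without either treated library, while in OCI-AML3 the log2 fold change was -0.37 (SE 0.37, adjusted p 0.459), or -0.37 (adjusted p 0.00648) without that library. Reads of IFITM2 and IFITM3 may be split between near-identical copies. IFI6, an inhibitor of apoptosis and of flavivirus replication, was at 1.43, 1.11 and 1.81 CPM in OCI-AML3 controls, 2.61, 2.44 and 2.57 CPM in treated OCI-AML3, 3.32, 2.06 and 3.85 CPM in FLT3-ITD controls and 3.27 and 3.70 CPM in treated FLT3-ITD cells. It rose in OCI-AML3 (0.81, SE 0.24, adjusted p 0.0215), where the groups did not overlap, and was not called in the FLT3-ITD line (0.18, or -0.04 without control replicate 2). The OCI-AML3 call of IFI6 was lost without control replicate 1 or 2 or treated replicate 1. IFI27 was called in neither line, but fell in the FLT3-ITD line (-1.16, adjusted p 0.0302) without control replicate 2.

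**Figure D2:**
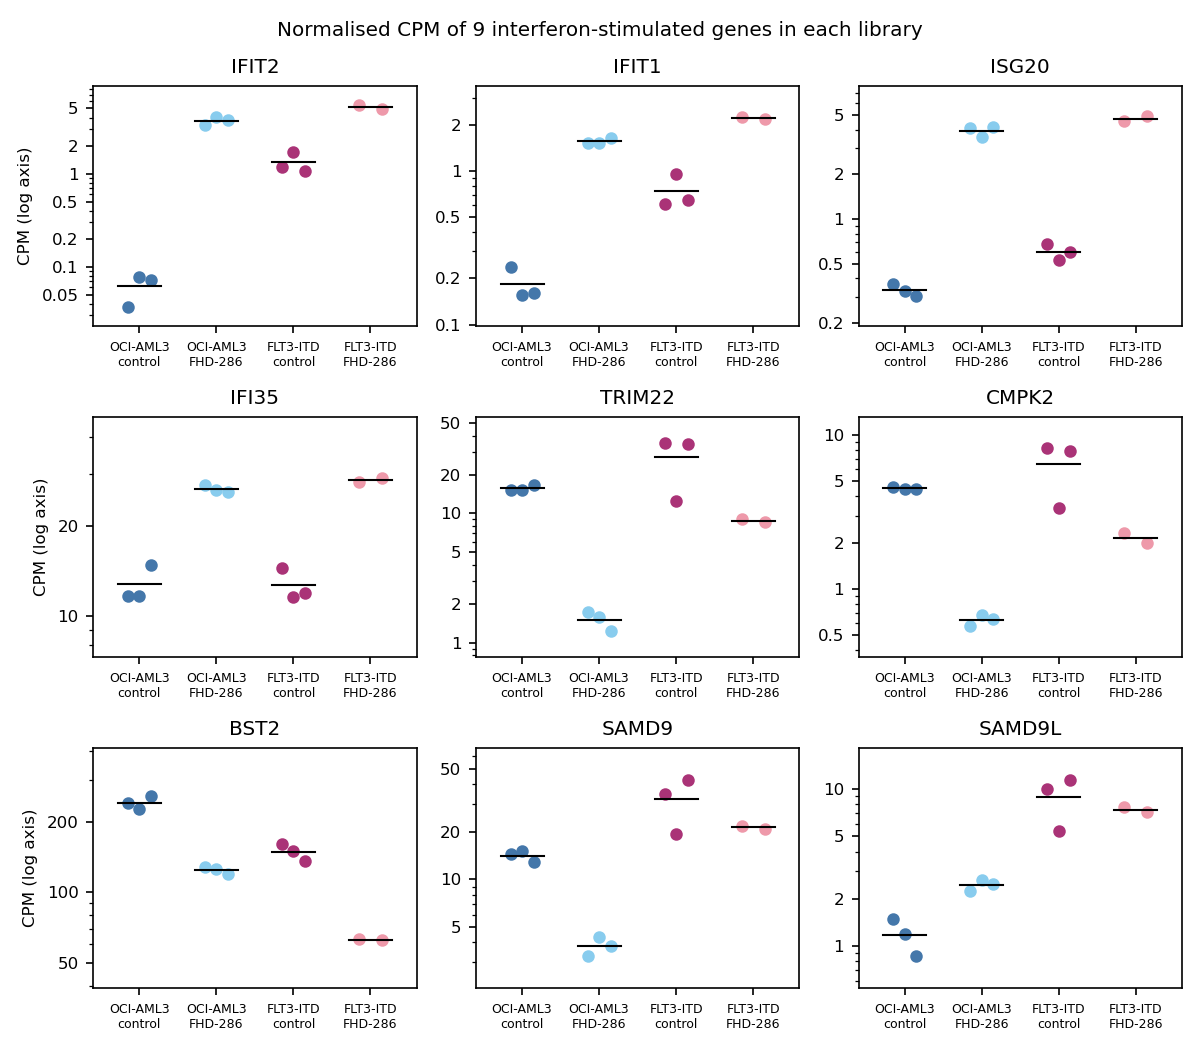
Normalised CPM (log axis) of 9 genes in each library, by group on the horizontal axis, where FLT3-ITD stands for OCI-AML3-FLT3-ITD. Points are libraries and lines are group means (n = 3, 3, 3 and 2). Treated points lie above the controls of both lines for IFIT2, IFIT1, ISG20 and IFI35 and below them for TRIM22, CMPK2 and BST2, while SAMD9 and SAMD9L move in opposite directions in OCI-AML3.

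Of the 3 enzymes that act on nucleotides and RNA, ISG20 rose in both lines, CMPK2 fell in both and RSAD2 fell in OCI-AML3. ISG20 (ENSG00000172183.14, GRCh38 chromosome 15, 88636153 to 88656483, plus strand), an exonuclease that degrades single-stranded RNA, had 0.365, 0.328 and 0.305 CPM in OCI-AML3 controls, 4.10, 3.54 and 4.19 CPM in treated OCI-AML3, 0.680, 0.534 and 0.599 CPM in FLT3-ITD controls and 4.59 and 4.91 CPM in treated FLT3-ITD cells. All treated libraries lay above all controls. ISG20 rose by 3.56 (SE 0.17, adjusted p 2.85e-07) and 2.97 (SE 0.17, adjusted p 1.55e-06), with 2.89 (adjusted p 2.36e-11) without control replicate 2. CMPK2 (ENSG00000134326.11, GRCh38 chromosome 2, 6840570 to 6866635, minus strand), a mitochondrial nucleotide kinase, was at 4.59, 4.47 and 4.49 CPM in OCI-AML3 controls, 0.576, 0.675 and 0.635 CPM in treated OCI-AML3, 8.18, 3.33 and 7.85 CPM in FLT3-ITD controls and 2.31 and 2.0014 CPM in treated FLT3-ITD cells. The treated OCI-AML3 libraries were lowest, and the treated FLT3-ITD libraries lay below all controls. CMPK2 fell, at -2.84 (SE 0.30, adjusted p 4.03e-05) in OCI-AML3 and -1.58 (SE 0.33, adjusted p 0.00439) in the FLT3-ITD line (-1.90, adjusted p 1.65e-10 without control replicate 2), with an adjusted p of 0.0512 without treated FLT3-ITD replicate 2. The RSAD2 gene overlaps that of CMPK2 on the opposite strand of chromosome 2. The strand setting of the counting was not given, so reads of the overlap cannot be told apart. RSAD2 (viperin), which makes a chain-terminating nucleotide, was at 0.347, 0.313 and 0.251 CPM in OCI-AML3 controls, 0.121, 0.143 and 0.0259 CPM in treated OCI-AML3, 0.553, 0.895 and 0.862 CPM in FLT3-ITD controls and 0.618 and 0.354 CPM in treated FLT3-ITD cells. Its treated libraries were lower in OCI-AML3, without overlap, the lowest value resting on 2 counts, and overlapped the controls in the FLT3-ITD line. RSAD2 fell in OCI-AML3 (-1.64, SE 0.49, adjusted p 0.0204), a call lost without control replicate 1 or 2 or treated replicate 3, and was not called in the FLT3-ITD line (-0.67, SE 0.45, adjusted p 0.292, or -0.56, adjusted p 0.26 without control replicate 2).

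PARP9 and the ubiquitin ligase DTX3L form a complex that modifies histones and host proteins, and PARP14 is another ADP-ribosyltransferase of the same region of chromosome 3. PARP9 (ENSG00000138496.16, GRCh38 chromosome 3, 122527924 to 122564577, minus strand) was at 1.32, 1.41 and 1.20 CPM in OCI-AML3 controls, 2.71, 2.10 and 2.81 CPM in treated OCI-AML3, 5.26, 1.83 and 5.42 CPM in FLT3-ITD controls and 6.47 and 6.37 CPM in treated FLT3-ITD cells. Treated libraries were higher in each line. DTX3L (ENSG00000163840.9, GRCh38 chromosome 3, 122564238 to 122575203, plus strand), whose gene overlaps the 5′ end of PARP9, was at 21.7, 22.8 and 22.8 CPM in OCI-AML3 controls, 15.9, 15.6 and 16.4 CPM in treated OCI-AML3, 36.8, 29.994 and 41.2 CPM in FLT3-ITD controls and 25.8 and 26.1 CPM in treated FLT3-ITD cells. Here the treated libraries were lower in each line. PARP9 rose in OCI-AML3 (0.96, SE 0.34, adjusted p 0.0439) and was not called in the FLT3-ITD line (0.62, SE 0.36, adjusted p 0.218, or 0.27, adjusted p 0.106 without control replicate 2), while DTX3L fell in both (-0.49, SE 0.11, adjusted p 0.00354 and -0.47, SE 0.12, adjusted p 0.0124, the latter -0.59, adjusted p 2.54e-06 without control replicate 2). The PARP9 call was lost on leaving out any library other than the FLT3-ITD controls, and the DTX3L call in the FLT3-ITD line without either treated library. PARP14 had 7.25, 7.91 and 6.57 CPM in OCI-AML3 controls, 6.38, 6.42 and 6.93 CPM in treated OCI-AML3, 28.1, 10.7 and 34.7 CPM in FLT3-ITD controls and 27.9 and 31.4 CPM in treated FLT3-ITD cells. Treated and control libraries overlapped, and no call was made (-0.14 and 0.27).

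SAMD9 and SAMD9L are paralogous restriction factors against poxviruses that also restrain growth of myeloid cells, and their genes lie 12031 bases apart on chromosome 7 on the same strand. Of the 4 restriction and nuclear factors, which also include TRIM22 and SP110, 1 rose and 2 fell in OCI-AML3 and 1 fell in the FLT3-ITD line. SAMD9 (ENSG00000205413.7, GRCh38 chromosome 7, 93099513 to 93118023, minus strand) was at 14.4, 15.032 and 12.8 CPM in OCI-AML3 controls, 3.28, 4.35 and 3.77 CPM in treated OCI-AML3, 34.7, 19.3 and 42.3 CPM in FLT3-ITD controls and 21.9 and 20.9 CPM in treated FLT3-ITD cells. The treated OCI-AML3 libraries were lowest and the FLT3-ITD controls 1 and 3 highest. SAMD9L (ENSG00000177409.11, GRCh38 chromosome 7, 93130055 to 93148369, minus strand) was at 1.48, 1.19 and 0.862 CPM in OCI-AML3 controls, 2.25, 2.63 and 2.48 CPM in treated OCI-AML3, 10.003, 5.44 and 11.4 CPM in FLT3-ITD controls and 7.65 and 7.11 CPM in treated FLT3-ITD cells. In OCI-AML3 its treated libraries were higher than the controls, without overlap. SAMD9 fell (-1.89, SE 0.24, adjusted p 0.000133) and SAMD9L rose (1.06, SE 0.27, adjusted p 0.0101) in OCI-AML3. In the FLT3-ITD line neither was called (-0.59, SE 0.26, adjusted p 0.113 and -0.28, SE 0.29, adjusted p 0.506), but both fell without control replicate 2, at -0.85 (adjusted p 1.43e-06) and -0.54 (adjusted p 0.00232). TRIM22 (ENSG00000132274.15, GRCh38 chromosome 11, 5689689 to 5737089, plus strand), a ubiquitin ligase that represses viral transcription, had 15.2, 15.2 and 16.7 CPM in OCI-AML3 controls, 1.72, 1.58 and 1.23 CPM in treated OCI-AML3, 34.9, 12.6 and 34.8 CPM in FLT3-ITD controls and 9.06 and 8.55 CPM in treated FLT3-ITD cells. The treated OCI-AML3 libraries were lowest, and FLT3-ITD control replicate 2 lay below the OCI-AML3 controls. TRIM22 fell, at -3.38 (SE 0.34, adjusted p 2.84e-05), the largest fall among the 36 genes in OCI-AML3, and at -1.64 (SE 0.36, adjusted p 0.00634) in the FLT3-ITD line (-1.98, adjusted p 1.59e-12 without control replicate 2), where the call was lost on leaving out either treated library. Exons of TRIM22 overlap OR56B1 over 10.7% of their length. SP110, a nuclear body protein whose exons overlap SP140 and another gene over 20.9% of their length, was at 1.52, 1.38 and 1.85 CPM in OCI-AML3 controls, 1.54, 1.88 and 2.38 CPM in treated OCI-AML3, 1.64, 2.19 and 1.85 CPM in FLT3-ITD controls and 2.53 and 2.05 CPM in treated FLT3-ITD cells. The ranges overlapped, and neither line gave a call (0.29 and 0.27).

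STAT2, the ISGF3 subunit in the set, was at 36.0, 36.2 and 34.6 CPM in OCI-AML3 controls, 43.2, 41.8 and 42.8 CPM in treated OCI-AML3, 38.4, 61.4 and 43.1 CPM in FLT3-ITD controls and 34.9 and 36.3 CPM in treated FLT3-ITD cells. The highest library was FLT3-ITD control replicate 2, treated OCI-AML3 lay above its controls, and treated FLT3-ITD cells lay below theirs. Neither change passed the test (0.26, SE 0.14, adjusted p 0.168 and -0.42, SE 0.16, adjusted p 0.0683), but without that library both did, at 0.26 (adjusted p 0.00107) and -0.20 (adjusted p 0.0358).

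Of the 4 other induced proteins tested, 1 rose and 2 fell in each line. IFI35 (ENSG00000068079.7, GRCh38 chromosome 17, 43006725 to 43014456, plus strand), a leucine zipper protein that binds NMI, was at 11.7, 11.7 and 14.9 CPM in OCI-AML3 controls, 27.6, 26.5 and 26.1 CPM in treated OCI-AML3, 14.5, 11.6 and 11.9 CPM in FLT3-ITD controls and 28.1 and 29.1 CPM in treated FLT3-ITD cells. Treated libraries were higher in both lines, and the controls of the lines overlapped. IFI35 rose by 1.07 (SE 0.12, adjusted p 5.47e-05) and 1.17 (SE 0.13, adjusted p 9.73e-05), or 1.12 (adjusted p 3.1e-08) without control replicate 2. LGALS3BP (ENSG00000108679.12, GRCh38 chromosome 17, 78971238 to 78980109, minus strand), a secreted galectin-binding glycoprotein, was at 4.35, 4.70 and 5.75 CPM in OCI-AML3 controls, 1.34, 1.32 and 1.35 CPM in treated OCI-AML3, 4.28, 5.33 and 4.40 CPM in FLT3-ITD controls and 1.03 and 0.915 CPM in treated FLT3-ITD cells. Treated libraries of both lines were lower, without overlap. LGALS3BP fell, at -1.88 (SE 0.16, adjusted p 8.42e-06) and -2.26 (SE 0.19, adjusted p 1.51e-05) (-2.16, adjusted p 1.2e-09 without control replicate 2). XAF1, an antagonist of the apoptosis inhibitor XIAP, was at 7.13, 8.11 and 8.73 CPM in OCI-AML3 controls, 6.29, 6.05 and 5.91 CPM in treated OCI-AML3, 19.0, 16.4 and 23.7 CPM in FLT3-ITD controls and 8.72 and 8.19 CPM in treated FLT3-ITD cells. Its treated libraries lay below the controls of each line. XAF1 fell in OCI-AML3 (-0.39, SE 0.14, adjusted p 0.0444), a call lost on leaving out any of 8 libraries, and in the FLT3-ITD line (-1.22, SE 0.16, adjusted p 0.000302, or -1.34, adjusted p 3.64e-09 without control replicate 2). Exons of XAF1 overlap the antisense gene PRAL over 38.3% of their length, and the strand setting of the counting was not given, so their reads cannot be told apart. IFI44 held 0 counts in OCI-AML3 controls and 4 in treated OCI-AML3, all of them in replicate 3, and was not called. IFI44L went from 20 counts over the FLT3-ITD controls to 0 after FHD-286, at least 4.69-fold lower with 3 counts over the group as the floor, with no test because the gene did not pass the filter.

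**Figure D3:**
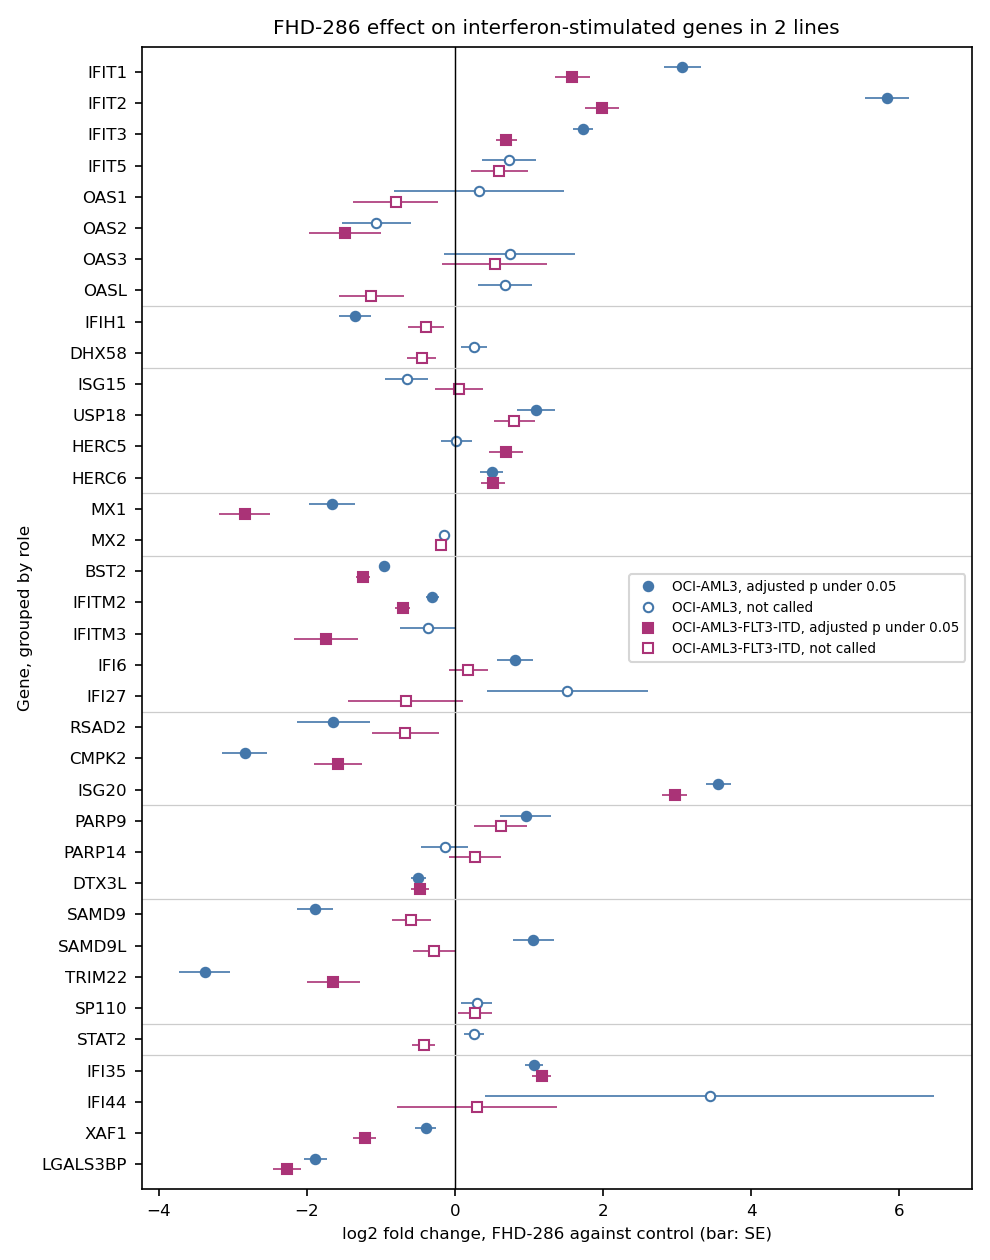
Log2 fold change after FHD-286 (horizontal axis, bars are SE) of the 36 genes tested in OCI-AML3 (circles) and OCI-AML3-FLT3-ITD (squares), grouped by role. Filled symbols have an adjusted p under 0.05. IFIT2 lies at 5.84 in OCI-AML3 and 1.98 in the FLT3-ITD line, and SAMD9 and SAMD9L lie on opposite sides of 0 in OCI-AML3.

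The difference between the effects of FHD-286 in the lines was tested as an interaction, which uses the same libraries as the comparisons above. It was called for 3 of 36 genes (8.33%, all lower, against 3.36% of all genes, of which 1.98% were higher and 1.38% lower), with a median difference of -0.36 against -0.01 over all genes tested. All 3 are IFIT genes with a smaller rise in the FLT3-ITD line: the difference was -3.85 (SE 0.39, adjusted p 0.00161) for IFIT2, -1.03 (SE 0.19, adjusted p 0.0192) for IFIT3 and -1.48 (SE 0.34, adjusted p 0.0436) for IFIT1 on the log2 scale, and -3.62, -1.09 and -1.26 without FLT3-ITD control replicate 2, all called. The same interaction, read the other way, means that their treated levels differed less between the lines than their untreated ones (0.50, 0.26 and 0.50 on the log2 scale when treated, against 4.35, 1.29 and 1.99 untreated, FLT3-ITD minus OCI-AML3). This is not a separate result, and for IFIT2 it rests on the few counts of the OCI-AML3 controls given above. None of the treated differences was called, and those of IFIT1 and IFIT2 were called without that library. IFIT2 stayed called whichever library was left out, whereas the IFIT1 call was lost without any 1 of 8 libraries (all but the FLT3-ITD controls) and the IFIT3 call without any 1 of 7 (all but those and treated OCI-AML3 replicate 3). Without FLT3-ITD control replicate 2, 18 genes were called, 5 higher and 13 lower (against 17.0% of all genes, 9.63% higher and 7.39% lower). The 5 were IFIH1, HERC5, CMPK2, SAMD9 and TRIM22, and of these TRIM22 (1.39, adjusted p 7.05e-07), SAMD9 (1.04, adjusted p 4.15e-05), CMPK2 (0.94, adjusted p 0.00119) and IFIH1 (0.71, adjusted p 0.00104) fell in both lines in that fit but less in the FLT3-ITD line. Among the 13, SAMD9L (-1.60, adjusted p 1.11e-05) and STAT2 (-0.46, adjusted p 0.00218) rose in OCI-AML3 and fell in the FLT3-ITD line in that fit.

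Before any drug, most of the genes tested stood higher in the FLT3-ITD line. Of 36 genes, 22 were higher and 1, BST2, was lower than in untreated OCI-AML3 (63.9%, against 28.0% of all genes, 14.5% higher and 13.5% lower), and all 23 were also called without FLT3-ITD control replicate 2. The median log2 difference was 1.10, against 0.01 over all genes tested. Without that library, 26 were higher and 2, BST2 and USP18, lower (77.8%, against 49.4% of all genes, 24.1% higher and 25.4% lower), with a median of 1.21 against -0.02. The 2 remaining FLT3-ITD controls had medians of 1.11 and 1.20 relative to the OCI-AML3 control mean on the log2(CPM + 0.05) scale, and replicate 2 had 0.466. Replicate 2 was below both other FLT3-ITD controls for 26 of 36 genes and above both for 8, namely IFIT1, IFIT2, OASL, USP18, RSAD2, SP110, STAT2 and LGALS3BP. The same shares over all genes were not computed, so whether these counts are particular to the set cannot be said. The ranges of the untreated groups did not overlap for 20 of 36 genes (55.6%, against 36.9% of all genes), 19 of them higher in the FLT3-ITD line. The summed level of all 39 genes did overlap, at 613 to 677 CPM in OCI-AML3 controls and 585 to 722 CPM in FLT3-ITD controls. Without the 3 genes of highest mean CPM, the sums were 169 to 175 CPM and 228 to 358 CPM.

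**Figure D4:**
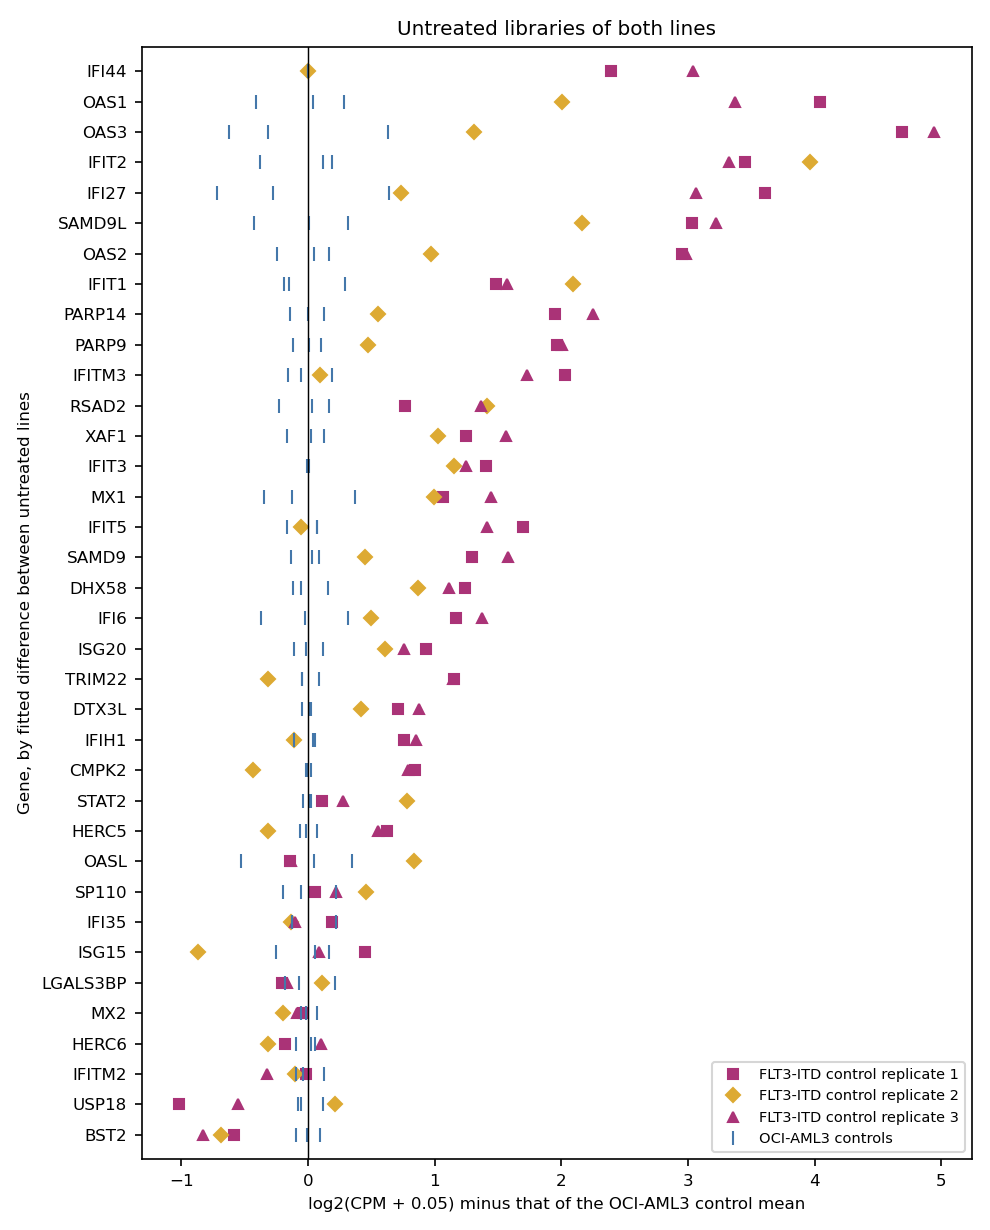
Each row is 1 of the 36 genes tested, and the horizontal axis is log2(CPM + 0.05) minus that of the OCI-AML3 control mean. Squares, diamonds and triangles are FLT3-ITD control replicates 1, 2 and 3, and bars are the 3 OCI-AML3 controls. Replicates 1 and 3 lie right of the OCI-AML3 controls for most genes, and replicate 2 often lies between, as for OAS3 and PARP14.

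OAS1 and OAS3 were among the widest differences between untreated lines. OAS3 (ENSG00000111331.12, GRCh38 chromosome 12, 112938352 to 112973249, plus strand) was at 0.0914, 0.13 and 0.287 CPM in OCI-AML3 controls and at 5.57, 0.491 and 6.66 CPM in FLT3-ITD controls. Replicate 2 of the FLT3-ITD line lay near OCI-AML3, and the other 2 far above. The log2 difference was 4.65 (SE 0.83, adjusted p 0.00335), or 5.19 (adjusted p 9.89e-14) without replicate 2, and reached 5.26 without OCI-AML3 control replicate 3. OAS1 (ENSG00000089127.12, GRCh38 chromosome 12, 112906777 to 112933222, plus strand) held 3 counts over the OCI-AML3 controls and 140 over the FLT3-ITD controls, a CPM ratio of 37.0 with a 95% exact interval of 12.4 to 182 that covers counting error only. The fitted log2 difference of OAS1 was 5.07 (SE 0.77, adjusted p 0.00167), or 5.47 (adjusted p 8.89e-08) without FLT3-ITD control replicate 2, and reached 5.88 without OCI-AML3 control replicate 2. OAS2 differed by 2.62 (SE 0.45, adjusted p 0.00279) and 3.03 (adjusted p 1.97e-12) without replicate 2, from 0.694, 0.938 and 0.862 CPM in OCI-AML3 controls to 6.79, 1.67 and 6.92 CPM. SAMD9L (2.93, SE 0.28, adjusted p 0.000226), IFIT2 (4.35, SE 0.30, adjusted p 4.33e-05), PARP14 (1.76, SE 0.33, adjusted p 0.00407) and PARP9 (1.67, SE 0.34, adjusted p 0.00611) were also higher. IFI27, a small inducible membrane protein, was higher by 3.97 (SE 0.94, adjusted p 0.012), or 4.46 (adjusted p 1.25e-06) without replicate 2, from 0, 0.0781 and 0.0180 CPM (0, 5 and 1 counts) in OCI-AML3 controls. Over the fits without 1 library this value ran from 3.37 (without FLT3-ITD control replicate 1) to 5.70 (without OCI-AML3 control replicate 2). IFI44 went from 0 to 44 counts, at least 11.6-fold higher, and none of the 44 came from replicate 2. Calls of IFIT5, IFITM3, RSAD2, STAT2, IFI27 and IFI44 were each lost on leaving out at least 1 library: IFI27 without OCI-AML3 control replicate 3 (adjusted p 0.0551), IFITM3 without OCI-AML3 control replicate 1 or 2 (largest adjusted p 0.0537), IFIT5 and RSAD2 without any of 5 libraries, STAT2 without any of 9 and IFI44 without any of 10.

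After FHD-286 the lines still differed, although this comparison shares its libraries with those above. Treated FLT3-ITD cells were higher than treated OCI-AML3 for 14 genes and lower for 3, OASL, BST2 and IFITM2 (47.2%, against 26.0% of all genes, 14.3% higher and 11.7% lower), with a median of 0.50 against 0.00. The ranges of the treated groups did not overlap for 32 of 36 genes (88.9%, against 66.2% of all genes), 25 of them higher in the FLT3-ITD line. TCF4 was also higher in the FLT3-ITD line, untreated (log2 difference 0.35, adjusted p 0.0238) and treated (0.80, adjusted p 0.00076), and NRP1 was called in neither. Their part in these differences was not tested. Without FLT3-ITD control replicate 2, which enters this comparison only through the shared spread, 21 were higher and 6 lower (75.0%, against 46.9% of all genes, 24.2% higher and 22.8% lower). The widest of those called were OAS3 (4.45, SE 0.81, adjusted p 0.00336), OAS1 (3.95, SE 0.76, adjusted p 0.00459), TRIM22 (2.54, SE 0.35, adjusted p 0.000834) and SAMD9 (2.49, SE 0.26, adjusted p 0.000171). TRIM22 and SAMD9 differed by 0.81 (SE 0.31, adjusted p 0.073) and 1.19 (SE 0.23, adjusted p 0.00505) between the untreated lines, the first called without FLT3-ITD control replicate 2 (1.15, adjusted p 5.14e-10). The number of calls fell to 11 without treated FLT3-ITD replicate 1, and XAF1 was lost without any of 8 libraries.

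The pathway above these genes was followed in a list of 51 ligands, receptors, kinases, transcription factors, sensors and inhibitors, of which 37 passed the filter. Of these, 13 rose and 11 fell after FHD-286 in OCI-AML3, and 13 rose and 9 fell in the FLT3-ITD line. The called shares of the list were 64.9% and 59.5%, against 41.3% and 30.5% of all genes. Each of these calls was also made without FLT3-ITD control replicate 2. Counts by role below cover few genes each, stand against the same shares of all genes, and are descriptions only. The 9 ligand genes followed had at most 8 counts in any library. IFNB1 had 0 counts in every OCI-AML3 library, 2, 8 and 5 counts in the FLT3-ITD controls and 0 and 1 in treated FLT3-ITD cells. Over the groups, IFNB1 was at least 3.96-fold higher in untreated FLT3-ITD than in untreated OCI-AML3, and the ratio of treated to untreated in the FLT3-ITD line was 0.0947 with a 95% exact interval of 0.00225 to 0.616, both without a test between libraries. Control replicate 2 held 8 of the 15 counts of the FLT3-ITD controls. Neither value was computed without that library, so both depend on it.

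Of the receptors, 4 of the 5 that passed rose in both lines, and IFNAR2 was not called after FHD-286 in either line. IFNGR2, the signalling chain of the interferon gamma receptor, was at 33.9, 31.9 and 32.7 CPM in OCI-AML3 controls, 60.9, 60.6 and 63.3 CPM in treated OCI-AML3, 48.9, 42.1 and 43.4 CPM in FLT3-ITD controls and 72.8 and 78.6 CPM in treated FLT3-ITD cells. Treated libraries were higher without overlap. IFNGR2 rose by 0.91 (SE 0.07, adjusted p 5.73e-06) and 0.76 (SE 0.08, adjusted p 6.83e-05), or 0.72 (adjusted p 1.06e-07) without control replicate 2. IFNAR1 rose by 0.38 (SE 0.06, adjusted p 0.000852) and 0.40 (SE 0.07, adjusted p 0.00177), and IL10RB, shared by interferon lambda and interleukin 10 receptors, by 0.46 (SE 0.07, adjusted p 0.000303) and 0.28 (SE 0.07, adjusted p 0.0141). The kinases JAK1 (0.34 and 0.30) and JAK2 (0.51 and 0.75) rose in both lines, with adjusted p of at most 0.0285, and TYK2 fell in OCI-AML3 (-0.23, SE 0.08, adjusted p 0.0399) and was not called in the FLT3-ITD line (-0.23, SE 0.09, adjusted p 0.074, or -0.30, adjusted p 0.0019 without control replicate 2).

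IRF9 rose in OCI-AML3 (1.16, SE 0.32, adjusted p 0.0148) and was not called in the FLT3-ITD line (0.68, SE 0.33, adjusted p 0.15, or 0.96, adjusted p 0.0112 without control replicate 2). The difference between the lines was -0.49 (SE 0.47, adjusted p 0.615). IRF9, a subunit of ISGF3, was named after its values were seen. IRF8, a factor of monocyte and dendritic cell development, stood highest of the IRFs tested per kilobase, with mean levels of 205 CPM per kb in OCI-AML3 controls and 17.6 for the next, IRF3. Its levels were 1054, 1007 and 1107 CPM in OCI-AML3 controls, 312, 329 and 297 CPM in treated OCI-AML3, 897, 1253 and 849 CPM in FLT3-ITD controls and 248 and 227 CPM in treated FLT3-ITD cells. All treated libraries were far below all controls. IRF8 fell, at -1.76 (SE 0.13, adjusted p 4.4e-06) and -2.08 (SE 0.16, adjusted p 8.37e-06), or -1.88 (adjusted p 9.39e-14) without control replicate 2. IRF1, an activator, fell (-0.49, SE 0.08, adjusted p 0.000553 and -0.41, SE 0.09, adjusted p 0.00526), and IRF2, its antagonist at shared sites, rose (0.53, SE 0.11, adjusted p 0.00236 and 0.60, SE 0.12, adjusted p 0.003).

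Of the 12 sensors and adaptors tested, 4 rose and 4 fell in OCI-AML3, and 5 rose and 4 fell in the FLT3-ITD line. STING1 (ENSG00000184584.12, GRCh38 chromosome 5, 139475534 to 139482935, minus strand), the adaptor that relays cytosolic DNA sensing to TBK1, was at 212, 214 and 228 CPM in OCI-AML3 controls, 62.8, 66.7 and 59.9 CPM in treated OCI-AML3, 227, 227 and 205 CPM in FLT3-ITD controls and 57.9 and 50.2 CPM in treated FLT3-ITD cells. Treated libraries lay far below the controls in both lines. STING1 fell, at -1.79 (SE 0.08, adjusted p 1.56e-07) and -2.02 (SE 0.09, adjusted p 4.9e-07), or -2.001 (adjusted p 7.58e-14) without control replicate 2. IFI16, a nuclear DNA sensor, went the other way, from 41.8, 41.9 and 41.2 CPM to 104, 103 and 102 CPM in OCI-AML3 (1.31, SE 0.07, adjusted p 6.79e-07) and by 0.83 (SE 0.08, adjusted p 4.13e-05) in the FLT3-ITD line. The kinase IKBKE fell (-0.99, SE 0.07, adjusted p 3.94e-06 and -0.57, SE 0.08, adjusted p 0.000569). RIGI, the RIG-I sensor of 5′-triphosphate RNA, rose (0.61 and 0.93), as did TBK1 (0.33 and 0.61) and the RNA-activated kinase EIF2AK2 (0.80 and 0.85), with adjusted p of at most 0.0141. TLR8, an endosomal receptor for single-stranded RNA, gave the lowest fold changes of the list. Its counts summed to 146 in OCI-AML3 controls and 22 in treated OCI-AML3 (-3.10, SE 0.60, adjusted p 0.00194), and to 71 in FLT3-ITD controls and 3 in treated FLT3-ITD cells, a CPM ratio of 0.0600 with a 95% exact interval of 0.0121 to 0.183 for counting error only. The fitted value in the FLT3-ITD line was -3.98 (SE 0.92, adjusted p 0.00797), or -3.12 (adjusted p 0.00259) without control replicate 2. RIGI, TBK1, EIF2AK2 and TLR8 are outside the rule for named genes and were chosen after their values were seen. CGAS was called in neither line, but rose in the FLT3-ITD line (0.29, adjusted p 0.00192) without control replicate 2.

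Of the 9 inhibitors tested, 1 rose and 3 fell in OCI-AML3, and 1 rose and 2 fell in the FLT3-ITD line. Of all genes, 41.3% and 30.5% were called, and counts this near those shares say nothing about the inhibitors as a group. PTPN6 (SHP-1), a phosphatase that dampens JAK signalling, was at 463, 436 and 517 CPM in OCI-AML3 controls, 99.1, 108 and 96.1 CPM in treated OCI-AML3, 391, 366 and 352 CPM in FLT3-ITD controls and 61.5 and 50.6 CPM in treated FLT3-ITD cells. Treated libraries of both lines lay far below the controls. PTPN6 fell, at -2.22 (SE 0.10, adjusted p 1.56e-07) and -2.72 (SE 0.12, adjusted p 3.18e-07), or -2.73 (adjusted p 1.16e-14) without control replicate 2. SAMHD1, a nucleotide triphosphatase that restricts retroviruses in myeloid cells, was at 218, 211 and 225 CPM in OCI-AML3 controls, 51.6, 53.9 and 54.1 CPM in treated OCI-AML3, 122, 137 and 127 CPM in FLT3-ITD controls and 55.3 and 58.5 CPM in treated FLT3-ITD cells. The treated libraries of both lines reached similar levels from different starts. SAMHD1 fell, at -2.04 (SE 0.07, adjusted p 2.45e-08) and -1.18 (SE 0.07, adjusted p 2.84e-06), or -1.13 (adjusted p 2.96e-11) without control replicate 2. SOCS3, a feedback inhibitor of JAK kinases, was at 0.968, 1.19 and 1.51 CPM in OCI-AML3 controls, 6.67, 6.18 and 6.04 CPM in treated OCI-AML3, 2.37, 1.73 and 2.50 CPM in FLT3-ITD controls and 6.26 and 6.6021 CPM in treated FLT3-ITD cells. It rose by 2.36 (SE 0.19, adjusted p 7.29e-06) and 1.55 (SE 0.20, adjusted p 0.000276), or 1.40 (adjusted p 5.95e-08) without control replicate 2, while SOCS1, the main brake on interferon receptors, was called in neither line.

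**Figure D5:**
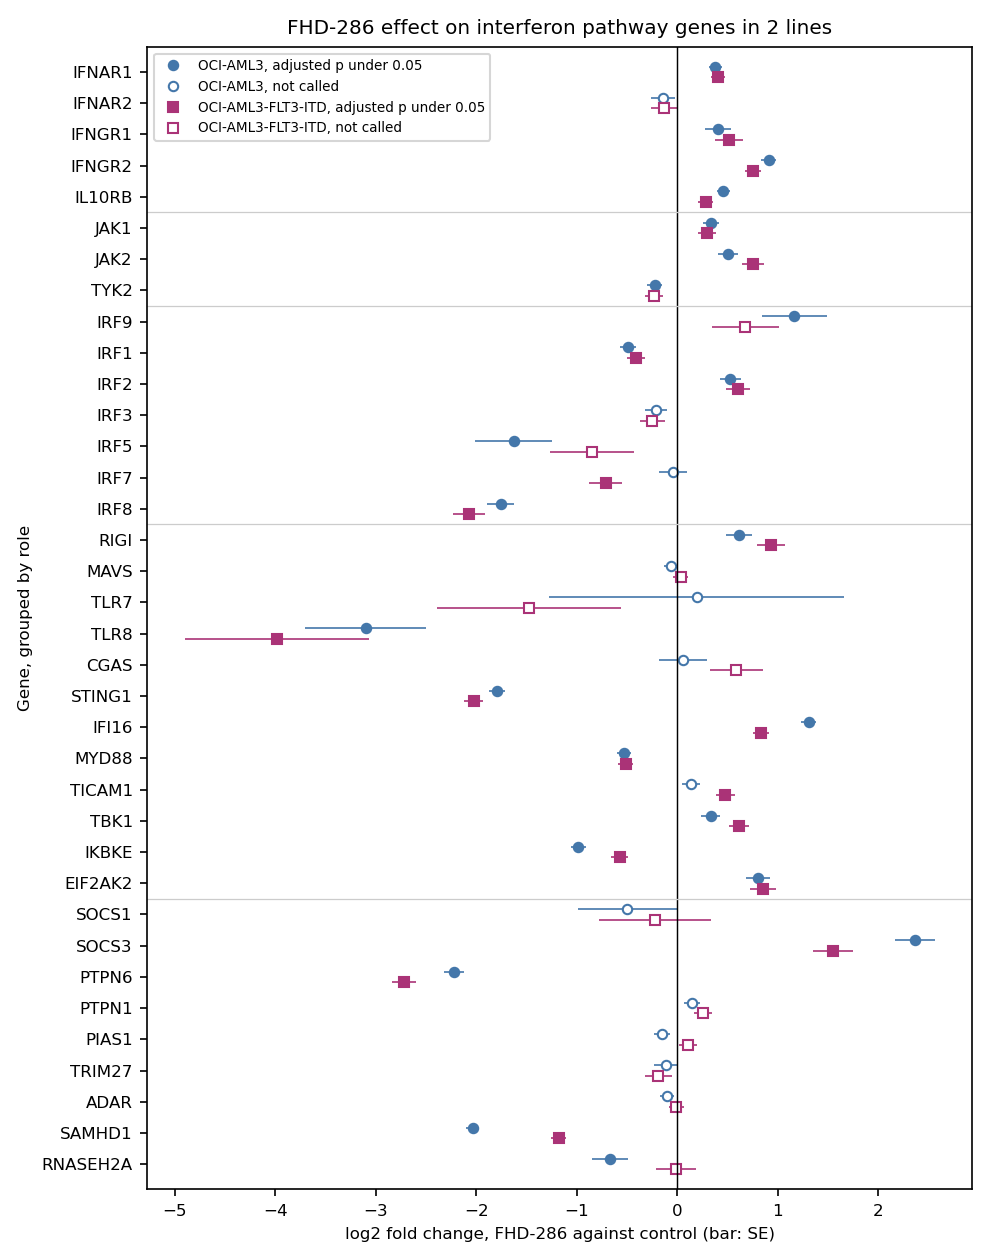
Log2 fold change after FHD-286 (horizontal axis, bars are SE) of 36 of the 37 pathway genes tested, in OCI-AML3 (circles) and OCI-AML3-FLT3-ITD (squares), in the order receptors, kinases, transcription factors, sensors and adaptors, and inhibitors. Filled symbols have an adjusted p under 0.05. Receptors lie right of 0 except IFNAR2, and STING1, IRF8 and PTPN6 lie far left of 0 in both lines, from -1.76 to -2.72.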

How the data were processed

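The authors deposited raw counts per gene, whole numbers with no normalisation, for 58037 Ensembl identifiers in 11 libraries. The submitters' processing notes name the aligner STAR and the build hg38; how reads were counted, with which strand setting and which gene models, is not given in the sources used here. Positions and symbols came from GENCODE 29, in which 57388 identifiers were found. Genes were kept with filterByExpr (minimum count 10, total 15), leaving 18908, and fitted by edgeR 4.0.16 in R 4.3.3 with TMM scaling and a quasi-likelihood model over all 11 libraries (1 mean per group, 7 residual degrees of freedom). Tests were two-sided, with Benjamini-Hochberg adjustment across the 18908 genes, and a gene is called at an adjusted p under 0.05. SE was derived from F, as the size of the fold change on the log2 scale over F's square root. CPM use the same scaling. Total counts ran from 58397190 to 79172389, and floors and intervals cover counting error only. The model was also run on simulated counts, in which no library stood apart. That run therefore cannot show how the tests behave with FLT3-ITD control replicate 2 included.

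The member genes, pathway list and markers were chosen with earlier results of these data known. In each role, up to 4 members with the smallest p in either line or in the difference, and up to 3 pathway genes with the smallest p in either line, were named with values. IFIT5, OAS1, OAS2, OAS3, IFI27, IFI44L and CGAS were named after their values were seen. Alternatives were DESeq2 1.42.0 size factors and Wald test, library totals, other filters, only the groups compared, a replicate block and leaving out each library. A few genes are not reported here.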

Additional observations from a re-analysis of the deposited data

Results flagged for a closer look

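The effect of FHD-286 differed between the lines, by the interaction test of edgeR, for 5 genes of the member and pathway lists. These were 3 of the 36 members tested (8.33%) and 2 of the 37 pathway genes tested (5.41%), against 3.36% of all genes. On the log2 scale, as the effect in OCI-AML3-FLT3-ITD minus that in OCI-AML3, the difference was -3.85 for IFIT2 (adjusted p 0.00161), -1.48 for IFIT1 (adjusted p 0.0436) and -1.03 for IFIT3 (adjusted p 0.0192), all of which rose in both lines. It was -0.48 for IFI16 (adjusted p 0.0436), which also rose in both lines. For SAMHD1 it was 0.86 (adjusted p 0.00176), which fell in both lines and less in OCI-AML3-FLT3-ITD. With OCI-AML3-FLT3-ITD control replicate 2 left out, the differences were -3.62, -1.26, -1.09, -0.52 and 0.91 in this order, all called. In that fit 18 of 36 members (50%) and 9 of 37 pathway genes (24.3%) were called, against 17.0% of all genes.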

How the results depend on the processing

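Calls are limited by 1 library, OCI-AML3-FLT3-ITD control replicate 2, and by the 2 treated libraries of that line. Leaving out each library in turn gave 16 to 27 called members for FHD-286 in OCI-AML3, 10 to 26 in OCI-AML3-FLT3-ITD, 1 to 18 for the difference, 18 to 28 between untreated lines and 11 to 27 between treated lines, against 21, 17, 3, 23 and 17. The 26, 18 and 27 came without OCI-AML3-FLT3-ITD control replicate 2, the 10 without either treated library of that line and the 11 without its treated replicate 1, while the difference had 5 calls without its control replicate 1. A fit of only the groups compared called 9 members in OCI-AML3-FLT3-ITD and 29 between treated lines. For the difference, no filter gave 7 and the DESeq2 Wald test 9. Scaling by library totals gave 11 higher and 9 lower in OCI-AML3 and moved the median of all genes from 0.01 to 0.17 on the log2 scale. The labels do not say whether the replicate numbers pair the samples. Deviations from the group means correlated between -0.0288 and 0.122 over 15 pairs of same-numbered samples, with 2 over 0.1. Over 30 pairs with different numbers they correlated between -0.203 and 0.192. With so few libraries per group, these values cannot decide whether the samples are paired. With the replicate number as a block, 20, 16, 2, 21 and 19 members were called. Of 2566 values of single genes under the alternatives, 2298 kept direction and side of the threshold, 157 lost and 101 gained a call, and 10 changed sign, none of them called: with library totals, FHD-286 in OCI-AML3 gave 0.016 for MX2 and 0.013 for PARP14, and leaving out each library gave ranges of -0.19 to 1.13 for OAS1 (lowest without OCI-AML3 control replicate 3) and -0.0117 to 0.0869 for HERC5 (negative without OCI-AML3 control replicate 1 and, at -0.00953, treated replicate 1). In OCI-AML3-FLT3-ITD these ranges were -0.24 to 0.36 for ISG15 (and -0.0138 without treated replicate 1), -0.0403 to 0.37 for IFI6, -0.0844 to 0.61 for PARP14 and -0.27 to 1.15 for IFI44, each lowest without control replicate 2. The cause was not tested. The 2566 values cover at most 36 members for FHD-286 in each line, but at most 18 for the difference, 28 between untreated lines and 27 between treated lines. Changes of the other members in those comparisons were not counted. Levels that rest on fewer than 3 counts in a library (IFIT2, OAS1, IFI27, RSAD2 and IFI44 among the members tested) are poorly determined, as are ranges drawn from them.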
